A study of Mus musculus with 12 samples.

Results

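The Iroquois (*Irx*) genes encode a family of homeodomain transcription factors of the TALE class, which bind DNA through a homeodomain with extra residues between its helices. In the mouse they form a pair of clusters, *Irx1*, *Irx2* and *Irx4* on chromosome 13 and *Irx3*, *Irx5* and *Irx6* on chromosome 8, and in the heart they are known for the patterning of chambers and of the conduction system. All 6 members were found by symbol among the 19424 genes of the deposited comparisons. The hearts came from CD1 embryos at E11.5 and E12.5. Controls were *Mesp1Cre*;*Hira*+/fl and mutants were *Mesp1Cre*;*Hira*-/fl, with 3 libraries in each of the 4 groups, so that every heart carried *Mesp1Cre* and a floxed *Hira* allele and the mutants also carried a null allele. *Mesp1Cre* recombines in the early cardiac mesoderm, whose descendants include cardiomyocytes and endothelium, while cells of other origin in the heart keep their alleles. RNA was taken from whole hearts, in which fewer cells of a type and less RNA per cell cannot be told apart. The labels number the libraries without stating litters or whether embryos were pooled, so p-values measure the spread between these libraries.

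Between 11994148 and 17483982 reads per library fell on genes, the lowest total being that of E11.5 mutant library 3. All 9 cardiac muscle genes used as a check of the tissue, among them *Tnnt2*, *Actc1* and *Nkx2-5*, lay between 10.3 and 4142 RPKM in every library. *Hira*, counted over the whole gene and not over the floxed exon alone, stood at 77.6 ± 8.64 CPM in E11.5 controls and 64.8 ± 8.98 CPM in E11.5 mutants (SD, n = 3), and at 74.8 ± 12.7 and 74.2 ± 5.28 CPM at E12.5, so its level does not check the recombination. By Y-linked reads, all 3 E11.5 control libraries were male and 1 of the 3 E11.5 mutant libraries was, and each E12.5 group held 1 male library. A pool that held male hearts would also be called male. Levels are RPKM (reads per kilobase of gene and per 1000000 reads, on TMM-scaled library sizes). A gene passed when edgeR's quasi-likelihood test gave it an adjusted p no higher than 0.05 and its fold change was 1.5 or more, the limits used in the study. With 3 libraries on each side, the smallest p of an exact two-sided permutation test is 0.1.

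The 6 genes code for a closely related DNA-binding domain, and the stretch in which they are most alike is shown because reads from it are the hardest to assign to 1 member. It lies in the homeobox, within a single coding exon of each gene, and 81 of its 90 bases are shared by all 6 (GENCODE transcripts, GRCm38). The sequences run 5′ to 3′ along the gene, and capitals mark the 9 positions at which members differ.
Irx1, chr13:71960031-71960120, - strand: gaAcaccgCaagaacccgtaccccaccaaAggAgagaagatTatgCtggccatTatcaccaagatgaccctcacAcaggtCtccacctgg
Irx2, chr13:72630724-72630813, + strand: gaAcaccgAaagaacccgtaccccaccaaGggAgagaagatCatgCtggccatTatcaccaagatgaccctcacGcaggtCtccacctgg
Irx3, chr8:91800535-91800624, - strand: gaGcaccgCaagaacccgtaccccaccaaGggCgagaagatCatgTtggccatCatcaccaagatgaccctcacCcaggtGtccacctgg
Irx4, chr13:73267583-73267672, + strand: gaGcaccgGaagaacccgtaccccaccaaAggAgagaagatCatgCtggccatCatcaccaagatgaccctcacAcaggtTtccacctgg
Irx5, chr8:92359687-92359776, + strand: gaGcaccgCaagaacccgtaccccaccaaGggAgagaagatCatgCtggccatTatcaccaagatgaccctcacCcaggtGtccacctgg
Irx6, chr8:92677296-92677385, + strand: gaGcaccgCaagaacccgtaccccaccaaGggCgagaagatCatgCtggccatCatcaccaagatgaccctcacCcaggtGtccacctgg
*Irx3* and *Irx6* shared 89 of these 90 bases, the most of any pair, and *Irx1* and *Irx3* shared 82, the fewest. The longest run common to the transcripts of *Irx3* and *Irx6* was 88 bases, that of *Irx2* and *Irx5* was 65 bases, and that of *Irx5* and *Irx6* was 38 bases. Over the whole coding sequences the aligned positions of *Irx3* and *Irx6* were 53.6% identical. How the authors' counting treated a read that fits more than 1 gene is not given in the sources used here, so a small share of the reads of *Irx3* and *Irx6* is uncertain.

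In each cluster the first gene lies on the - strand and the other two on the + strand. On chromosome 8 (GRCm38), *Irx3* (ENSMUSG00000031734, chr8:91798511-91802067, - strand) is followed after 555728 bases by *Irx5* (ENSMUSG00000031737, chr8:92357796-92361454, + strand) and after another 312834 bases by *Irx6* (ENSMUSG00000031738, chr8:92674289-92680956, + strand). On chromosome 13, *Irx1* (ENSMUSG00000060969, chr13:71957921-71963723, - strand) is followed after 665096 bases by *Irx2* (ENSMUSG00000001504, chr13:72628820-72634196, + strand) and after another 626300 bases by *Irx4* (ENSMUSG00000021604, chr13:73260497-73269620, + strand). Annotated antisense genes overlap *Irx3* over 1653 bases (*Irx3os*) and *Irx6* over 785 bases (*Gm45505*), and none overlaps the other 4 members. Use of the strand in counting is not stated, so reads of these partners cannot be told apart from reads of *Irx3* and *Irx6*.

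*Irx4*, a ventricular factor and a marker of ventricular identity, had the highest level of the family in each group. It made up 42.3% ± 4.13 of the summed RPKM of the 6 genes in E11.5 controls and 37.7% ± 0.617 in E12.5 mutants (SD, n = 3), and in all 12 libraries it lay above every other member. *Irx5* came second in each group by the mean. In controls it overlapped with *Irx3* and lay above *Irx3* in 2 of the 3 libraries of each stage. The order of the means below *Irx5* differed by genotype. In control hearts *Irx3*, *Irx2* and *Irx1* followed, with overlapping ranges, and *Irx6* was last, in all 3 libraries of a stage below *Irx1*. In mutant hearts of both stages *Irx6* came next after *Irx5* and *Irx3* was last, although *Irx6*, *Irx2*, *Irx1* and *Irx3* overlapped with their neighbours in that order. The summed level of the family was 54.5 ± 5.21 RPKM in controls of E12.5 and 54.1 ± 4.48 RPKM in mutants of that stage. At E11.5 the sums were 52.1 ± 14.0 and 62.8 ± 10.1 RPKM, with overlapping libraries.

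**Figure D1:**
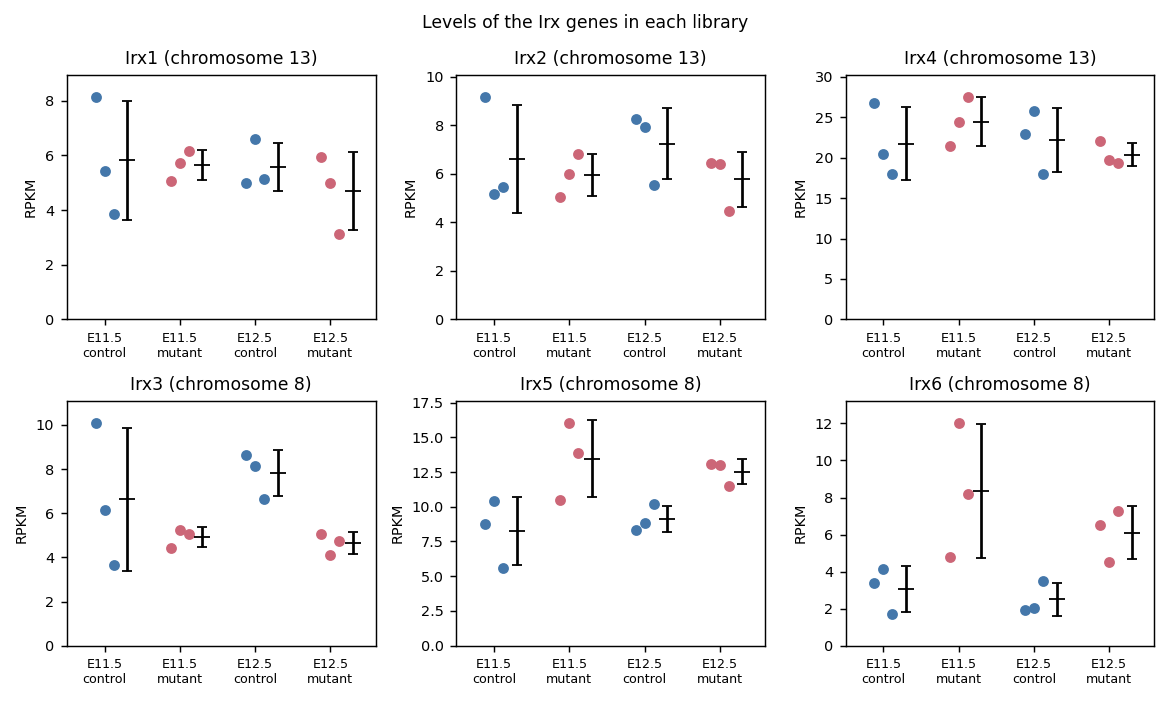
RPKM of each *Irx* gene in each of the 12 libraries (points, in the order of the replicate numbers; blue, control; red, mutant), with the mean and SD of 3 libraries beside them, on axes that start at 0. The mutant points of *Irx5* and *Irx6* lie above all control points of their stage, those of *Irx3* lie below them at E12.5, and the groups overlap for *Irx1*, *Irx2* and *Irx4*.

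*Irx6* rose in the mutant hearts. Its level was 3.37, 4.14 and 1.70 RPKM in the E11.5 controls and 4.79, 12.0 and 8.20 RPKM in the E11.5 mutants. At E12.5 it was 1.93, 2.05 and 3.52 RPKM in controls and 6.52, 4.51 and 7.26 RPKM in mutants. The mutant libraries were above all control libraries at each stage. The reads behind these values numbered 58 to 154 per control library and 176 to 474 per mutant library. At E12.5 the log2 fold change was 1.28 (95% confidence interval 0.74 to 1.82, adjusted p = 0.0161, edgeR), which is 2.43-fold. At E11.5 the log2 fold change was 1.44 (0.56 to 2.31) with an adjusted p of 0.213 in edgeR, and DESeq2 gave an adjusted p of 0.0159. Over both stages, with the stage as a term, it was 1.36 (0.82 to 1.90, adjusted p = 0.0059, edgeR), and *Irx6* passed in each of the 12 fits that left out 1 library. The alternatives of this combined comparison gave adjusted p-values from 6.11e-06 to 0.0175, the value with the sex of the library as a term being 0.00693 (edgeR).

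*Irx3*, which in the ventricular conduction system is required for fast conduction, moved the other way. At E12.5 it had 8.64, 8.15 and 6.64 RPKM in controls and 5.08, 4.10 and 4.74 RPKM in mutants, and the groups did not overlap. The log2 fold change was -0.75 (95% confidence interval -1.06 to -0.45, adjusted p = 0.0143, edgeR), 1.69-fold lower in the mutant. At E11.5 the controls spread widely, at 10.1, 6.15 and 3.64 RPKM, around mutants at 4.41, 5.26 and 5.08 RPKM. There the log2 fold change of -0.43 (-1.17 to 0.30) had an adjusted p of 0.765, and without control library 1 it was 0.00. Over both stages *Irx3* had a log2 fold change of -0.59 (-1.0 to -0.19) and an adjusted p of 0.0807 in edgeR, and 0.0306 in DESeq2.

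At E12.5, then, 2 of the 6 members passed the test, *Irx6* upward and *Irx3* downward, where 2.95% of the 12257 genes tested passed (1.59% higher and 1.36% lower). Neither call was independent of single libraries. Without control library 1 the adjusted p was 0.0756 for *Irx6* and 0.0622 for *Irx3* in edgeR, without control library 2 it was 0.060 and 0.0524, and without mutant library 1 *Irx6* had 0.0567. In a fit of all 12 libraries with a shared spread the log2 fold changes were 1.28 and -0.75 as before, with adjusted p-values of 0.131 and 0.247 (edgeR). At E11.5 none of the 6 members passed in edgeR, where 0.115% of 12197 genes did. There 2 of the 6, *Irx5* and *Irx6*, had an unadjusted p under 0.05, as did 10.2% of all genes tested, and DESeq2 called 1 member, *Irx6*, among 2.03% of genes.

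*Irx5*, a repressor of the potassium channel gene *Kcnd2* in the adult ventricle and a gene active in endocardium, was higher in mutants by a smaller fold. It had 8.75, 10.4 and 5.62 RPKM in E11.5 controls and 10.5, 16.0 and 13.9 RPKM in E11.5 mutants. At E12.5 it had 8.33, 8.83 and 10.2 RPKM in controls and 13.1, 13 and 11.5 RPKM in mutants. The groups did not overlap at either stage, although the lowest mutant and the highest control of E11.5 lay close together. The log2 fold change was 0.70 (0.15 to 1.25, adjusted p = 0.339, edgeR) at E11.5 and 0.46 (0.22 to 0.69, adjusted p = 0.0349, edgeR) at E12.5. At E12.5 the fold of 1.37 was under the threshold of 1.5, so *Irx5* did not pass, and without the fold threshold 5.0% of genes were called. Over both stages it was 0.58 (0.28 to 0.88, adjusted p = 0.0244, edgeR), a fold of 1.49, again under the threshold. Without the fold threshold the E12.5 call was lost in 4 of the 6 fits without 1 library, those without control library 1 or 2 and those without mutant library 1 or 2, at adjusted p-values from 0.0962 to 0.119 (edgeR), and the combined one, with which 6.85% of genes were called, in 3 of 12, at up to 0.055.

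Over both stages 1 of the 6 members, *Irx6*, passed, where 3.22% of 12270 genes did. For single values, an exact two-sided permutation of the genotypes within stages has 400 arrangements and a smallest p of 0.005. *Irx5* and *Irx6* each reached that p of 0.005, *Irx3* had an exact p of 0.05, and *Irx1*, *Irx2* and *Irx4* had exact p-values of 0.54, 0.265 and 0.76. Groups that did not overlap and kept their direction at both stages were found for these 2 members, *Irx5* and *Irx6*, and for 6.53% of all genes. Groups did not overlap for 16.3% of genes at E11.5 and for 26.3% at E12.5.

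**Figure D2:**
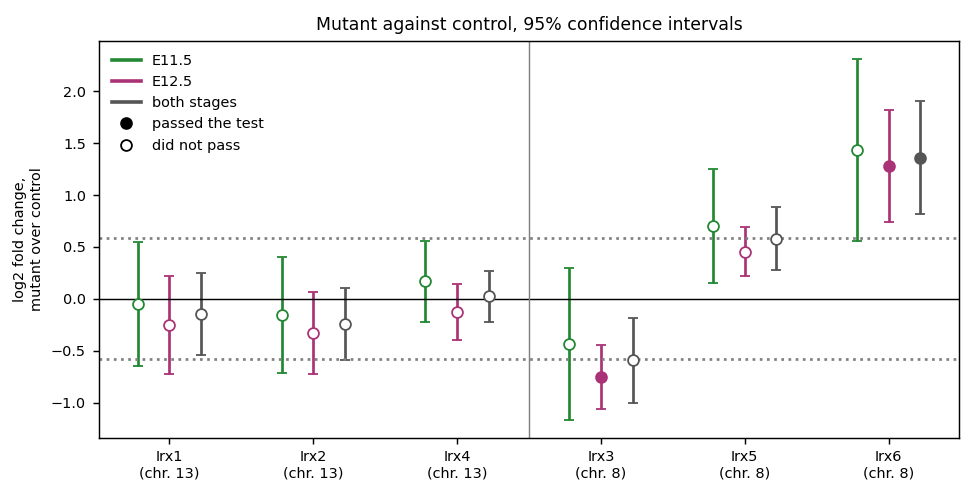
Log2 fold change of each *Irx* gene, mutant over control, with 95% confidence intervals, at E11.5, at E12.5 and over both stages (colours). Filled points passed the test, open points did not, and dotted lines mark a fold change of 1.5. *Irx6* lies between 1.28 and 1.44 in each comparison, *Irx3* reaches -0.75 at E12.5, and the intervals of the chromosome 13 genes *Irx1*, *Irx2* and *Irx4* include 0.

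The chromosome 13 genes did not pass in any comparison. *Irx4* had 26.8, 20.4 and 18.0 RPKM in E11.5 controls and 21.4, 24.5 and 27.5 RPKM in E11.5 mutants, and at E12.5 22.9, 25.8 and 17.9 RPKM in controls and 22, 19.8 and 19.4 RPKM in mutants. Its groups overlapped at both stages. The combined log2 fold change was 0.02 with a 95% confidence interval of -0.23 to 0.27, so that a change of *Irx4* by 1.5-fold in either direction lies outside the interval. *Irx1* and *Irx2*, known from the ventricular septum and the atrioventricular conduction axis, were less tightly bounded. *Irx2* had 9.17, 5.17 and 5.45 RPKM in E11.5 controls, 5.05, 5.98 and 6.80 RPKM in E11.5 mutants, 8.26, 7.93 and 5.55 RPKM in controls of E12.5 and 6.44, 6.41 and 4.47 RPKM in E12.5 mutants. Its groups overlapped, and its combined log2 fold change was -0.24 (-0.59 to 0.11, adjusted p = 0.472, edgeR). *Irx1* had 8.15, 5.43 and 3.87 RPKM in E11.5 controls, 5.06, 5.71 and 6.15 RPKM in E11.5 mutants, 5.0, 6.60 and 5.14 RPKM in controls of E12.5 and 5.95, 4.98 and 3.13 RPKM in E12.5 mutants. Its groups overlapped too, and its combined log2 fold change was -0.15 (-0.54 to 0.24, adjusted p = 0.746, edgeR).

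E11.5 control library 1 had the highest *Irx1*, *Irx2* and *Irx3* of all 12 libraries. Without this library the E11.5 log2 fold change of *Irx1* was 0.27 and that of *Irx2* was 0.16, in place of -0.05 and -0.16. Some *Irx* genes are also active in lung and foregut, so markers of those tissues were summed. The 8 genes of lung and foregut epithelium, which include *Nkx2-1*, *Foxa1* and *Shh*, came to 21.0 CPM in this library and to 2.5 and 3.85 CPM in the other E11.5 controls. In E11.5 mutants they came to 14.2, 1.99 and 2.85 CPM, and in E12.5 mutant library 3 to 16.5 CPM. The 6 genes of foregut and lung mesenchyme came to 21.0 CPM in E11.5 control library 1 and to between 4.47 and 13.3 CPM in the other libraries. None of these markers was at 0 over all libraries, but *Foxa1*, *Foxa2*, *Shh* and *Sftpc* had at most 2 reads in any library. E11.5 mutant library 1 and E12.5 mutant library 3, which also held epithelial markers, had 9.13 and 13.3 CPM of the mesenchyme genes. Their *Irx1* stood at 5.06 and 3.13 RPKM, their *Irx2* at 5.05 and 4.47 RPKM and their *Irx3* at 4.41 and 4.74 RPKM. The part of these tissues in the high values of control library 1 was not tested.

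Because library size cancels in a ratio of 2 genes of the same library, the members were also compared with each other. These ratios were chosen after the levels had been seen, and all 15 pairs were computed. The RPKM of *Irx3* was 3.0, 1.48 and 2.14 times that of *Irx6* in E11.5 controls and 4.47, 3.98 and 1.89 times in E12.5 controls. In mutants it was 0.921, 0.438 and 0.619 times at E11.5 and 0.779, 0.908 and 0.654 times at E12.5. *Irx3* was thus above *Irx6* in all 6 control libraries and below it in all 6 mutant libraries. The log2 ratio differed by -1.91 between mutant and control, averaged over the stages (exact two-sided permutation within stages, p = 0.005, the smallest of 400 arrangements).

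*Irx3* over *Irx5* gave 1.15, 0.590 and 0.648 in E11.5 controls and 1.04, 0.923 and 0.652 in E12.5 controls. The mutant ratios were 0.421, 0.328 and 0.365 at E11.5 and 0.388, 0.315 and 0.414 at E12.5, all below the lowest control. The log2 ratio differed by -1.12 (exact permutation p = 0.005). *Irx5* over *Irx6* also fell, by 0.78 on the log2 scale (exact permutation p = 0.005), so the higher *Irx5* and *Irx6* were not raised in equal measure. Among the chromosome 13 genes, the log2 ratio of *Irx1* to *Irx2* differed by 0.08 (exact permutation p = 0.545), that of *Irx1* to *Irx4* by -0.17 (exact permutation p = 0.265) and that of *Irx2* to *Irx4* by -0.26 (exact permutation p = 0.035), the last without overlap at E11.5 and with overlap at E12.5. *Irx3* over *Irx4* differed by -0.57 (exact permutation p = 0.015) and *Irx1* over *Irx3* by 0.39 (exact permutation p = 0.045). Of the 15 pairs, 12 had an exact permutation p of 0.05 or less, and 8 did not overlap between genotypes at either stage, and each of the 8 contained *Irx5* or *Irx6*. The pairs share genes and are not independent, and these p-values are unadjusted. As single genes *Irx5* and *Irx6* already did not overlap at either stage, and ratios with them carry that difference. A share over other pairs of genes was not computed.

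**Figure D3:**
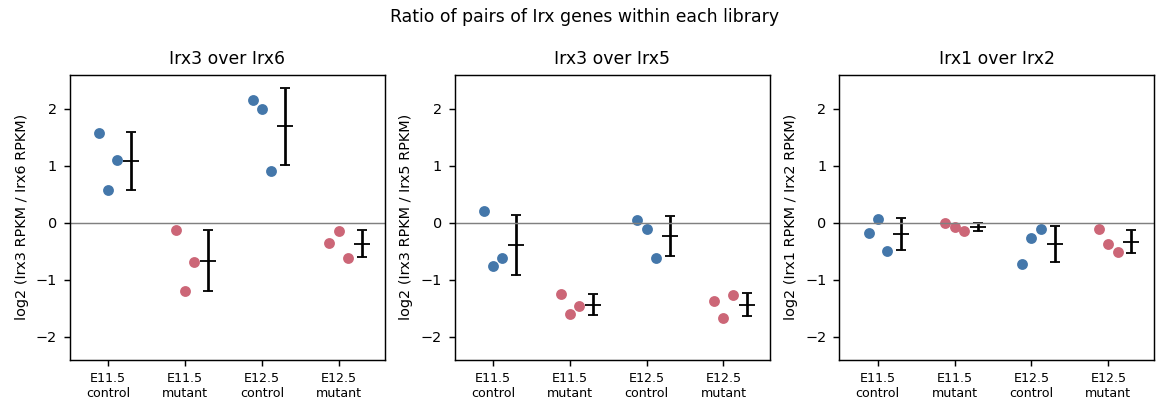
Log2 of the ratio of RPKM of a pair of *Irx* genes within each library, for *Irx3* over *Irx6*, *Irx3* over *Irx5* and *Irx1* over *Irx2* (points by replicate number; blue, control; red, mutant; mean and SD of 3 libraries beside them). The line at 0 marks equal levels. All mutant libraries lie below all control libraries of their stage in the first and second panels, with differences of -1.91 and -1.12, and the genotypes overlap in the third.

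As shares of the family total, *Irx6* made up 5.84% ± 1.90 in E11.5 controls and 12.9% ± 4.04 in E11.5 mutants, and 4.71% ± 2.14 and 11.3% ± 2.92 at E12.5 (SD, n = 3). *Irx3* made up 14.3% ± 1.18 in controls of E12.5 and 8.59% ± 0.814 in E12.5 mutants. *Irx5* stood at 16.9% ± 3.36 and 23.2% ± 1.31 in the same groups. The share of *Irx4* was 40.6% ± 3.54 and 37.7% ± 0.617 there, with overlapping libraries.

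None of the 6 passed from E11.5 to E12.5 in controls, where 2.74% of genes did, or in mutants, where 0.97% did (edgeR). The unadjusted p was 0.126 or higher for each member in both genotypes, and DESeq2 called none of the 6 either. The largest log2 fold change was that of *Irx6* in mutants, -0.45 (95% confidence interval -1.21 to 0.30, adjusted p = 0.642, edgeR). *Irx3* had 0.24 (-0.34 to 0.81) in controls and -0.08 (-0.68 to 0.51) in mutants. The difference of the mutant effect between the stages was tested for each member as well. None passed in edgeR, where 0.0% of genes did and 4.49% had an unadjusted p under 0.05, and no member was among these. The interval for *Irx6* ran from -1.27 to 0.96 on the log2 scale and that for *Irx3* from -1.14 to 0.50, so differences of about the size of the effects themselves could not be seen.

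Some members varied together from library to library within a group. After the group means were removed, the log2 CPM of *Irx5* and *Irx6* had a Pearson r of 0.855 over the 12 libraries (exact permutation within groups, p = 0.0131, adjusted over 15 pairs 0.0492). Within groups *Irx2* and *Irx4* had an r of 0.864 (exact permutation p = 0.00694, adjusted 0.0492), *Irx3* and *Irx4* 0.806 (exact permutation p = 0.0116, adjusted 0.0492) and *Irx1* and *Irx4* 0.761 (exact permutation p = 0.010, adjusted 0.0492). These 4 of the 15 pairs passed, all close to the limit of 0.05, and the within-group values were not recomputed without single libraries. E11.5 control library 1 had the highest *Irx1*, *Irx2*, *Irx3* and *Irx4* of its group. The pairs of *Irx6* with *Irx1*, *Irx2* and *Irx4* had values of r from -0.0874 to 0.236. *Irx3*, although it lies beside *Irx5* on chromosome 8, had an r of 0.536 with *Irx5* (exact permutation p = 0.452) and of 0.46 with *Irx6* (exact permutation p = 0.355).

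Without removing group means, *Irx1* and *Irx4* had a Pearson r of 0.751 (permutation p = 0.00329, adjusted 0.0223) and a Spearman rho of 0.783 (permutation p = 0.00404, adjusted 0.0303), and an r of 0.778 without the 2 libraries farthest from the median of *Irx1*. *Irx1* and *Irx2* had an r of 0.752 (permutation p = 0.00446, adjusted 0.0223) and a rho of 0.643 (permutation p = 0.0275, adjusted 0.0943). Without the 2 libraries farthest from the median of *Irx1* their r was 0.438. Leaving these out also narrows the range, so the lower r does not show what the relation rests on. Within groups this pair had an r of 0.786 (exact permutation p = 0.0363, adjusted 0.109). No pooled value is given for *Irx5* and *Irx6*. For both genes the mutant libraries lay above the controls of their stage, and a pooled r would carry that difference. Both genes of a pair come from the same library, so they share its dissection and depth, whose part in the relations was not tested.

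**Figure D4:**
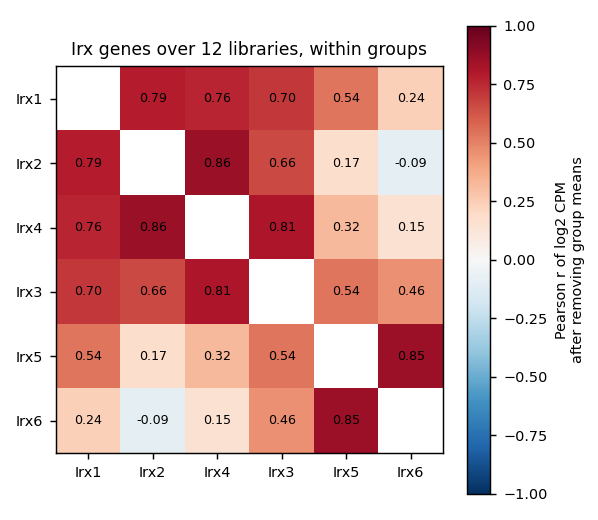
Pearson r between *Irx* genes over the 12 libraries, computed on log2 CPM after the mean of each group was removed (colour from -1 to 1, values printed). *Irx1*, *Irx2*, *Irx4* and *Irx3* had values from 0.663 to 0.864 with each other, *Irx5* and *Irx6* had 0.855, and *Irx6* with the chromosome 13 genes stayed between -0.0874 and 0.236.

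The genes whose pattern over the 12 libraries was most like each member were listed among 11458 genes by Pearson r of log2 CPM. For *Irx6* these were *Casq1*, the skeletal isoform of the calcium-binding protein calsequestrin (r = 0.946), *Vwf*, the endothelial von Willebrand factor (0.945), and *Sost*, a secreted Wnt antagonist (0.942). For *Irx5* they included *Palm*, the gene of paralemmin (0.946), and *Gata2*, a factor of blood and endothelial cells (0.923). *Irx3* was nearest to *Tpra1* (0.869), the retinoid receptor gene *Rxra* (0.864) and *Tnip1* (0.858). *Irx4* was nearest to *Chmp7* (0.879), *Irx2* to the ion cotransporter gene *Slc12a2* (0.858) and *Irx1* to *Fam122a* (0.890). These are descriptions, and genes that differ between the genotypes share that difference. Over both stages *Casq1* rose with a log2 fold change of 0.93 (adjusted p = 0.00878, edgeR), *Vwf* with 1.29 (adjusted p = 0.00182, edgeR) and *Sost* with 1.80 (adjusted p = 0.000509, edgeR).

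Markers of endocardium and endothelium stood higher in mutants in part. Their sum over 9 genes was 1140 to 1407 CPM in E11.5 controls and 1377 to 1984 CPM in E11.5 mutants, and 1444 to 1506 and 1421 to 1798 CPM at E12.5. None of the 9 passed at either stage. Their median log2 fold change was 0.44 at E11.5 and 0.11 at E12.5, where the median of all genes was 0.00 at both. At E11.5 4 of the 9 had an unadjusted p under 0.05 (edgeR), as did 10.2% of all genes tested. At E12.5 4 of the 9 did as well, and the share of all genes at that stage is not reported here. *Pecam1*, an adhesion protein of endothelium, had log2 fold changes of 0.52 and 0.24, *Nfatc1*, a factor of endocardium, had 0.70 at E11.5 and 0.53 at E12.5 (adjusted p = 0.152 and 0.0807, edgeR) and passed over both stages with 0.61 (adjusted p = 0.00879, edgeR), as 3.22% of all genes did, a call kept in 9 of the 12 fits without 1 library at log2 fold changes from 0.52 to 0.69. *Cdh5*, a junction protein of endothelium, had 0.63 and 0.05. *Irx6* had 1.44 and 1.28 at the same stages. Neural markers moved as well, and *Irx* genes are active in neural tissue. The 8 genes of the neural and neural crest list came to 16.1 to 27.2 CPM in E11.5 controls, 30.1 to 60.9 CPM in E11.5 mutants, 12.3 to 18.4 CPM in controls of E12.5 and 38.1 to 44.5 CPM in E12.5 mutants. Of these 8, *Tubb3* and *Stmn2*, genes of neuronal microtubules, were the 2 above the minimum level for testing, and both rose at E12.5, with log2 fold changes of 1.16 and 1.87 (adjusted p = 0.00723 and 0.00132, edgeR), where 1.59% of all genes passed upward. The progenitor marker *Sox1* had 1 read over all 12 libraries. None of the 8 was at 0 over all libraries. The part of endocardial and neural cells in the higher *Irx5* and *Irx6* was not tested.

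The 7 epicardial genes summed to 526 to 809 CPM in E11.5 controls and 345 to 459 CPM in E11.5 mutants, and none passed there. Their median log2 fold change at E11.5 was -0.72. An unadjusted p under 0.05 (edgeR) was found for 6 of the 7 at that stage, where 10.2% of all genes had one. The lower level was not seen at E12.5. There the sums overlapped, at 365 to 536 CPM in controls and 455 to 537 CPM in mutants, and the median was 0.14. *Msln*, a mesothelial surface protein, rose at E12.5 (log2 fold change 1.03, adjusted p = 0.0140, edgeR), 1 of 7, where 1.59% of all genes passed upward, a call kept in 5 of the 6 fits without 1 library and lost without control library 1. *Postn*, a matrix protein of the cushions, fell at E12.5 (-0.61, adjusted p = 0.0241, edgeR), 1 of 8 cushion genes, where 1.36% of all genes passed downward, and this call was lost in 4 of the 6 fits without 1 library. The 5 liver genes came to 56.4 CPM in E11.5 mutant library 1, 24.7 CPM in E11.5 control library 1 and 50.1 CPM in E12.5 mutant library 1, and to 13.8 CPM or less in the rest. None passed, and at E12.5 the median log2 fold change of the 4 liver genes tested was 1.72. An unadjusted p under 0.05 (edgeR) was found for 3 of them, and the share of all genes is not reported here. None of the 9 cardiac muscle genes passed at either stage. Their part in the *Irx* values was not tested.

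The genes next to the clusters were examined for a shift of the whole region. Within 1 megabase of a member the table held 18 genes on chromosome 8 and 18 on chromosome 13, of which 7 and 12 were expressed enough for a test. None of these neighbours passed at either stage, where 0.115% of all genes tested passed at E11.5 and 2.95% at E12.5. At those shares, no call among so few genes is not a result about the region. On chromosome 8 their log2 fold changes at E12.5 ran from -0.23 to 0.25, while *Irx3* had -0.75, *Irx5* 0.46 and *Irx6* 1.28. *Fto*, a demethylase gene whose introns are known to hold distal regulatory elements of *Irx3* and which lies 130072 bases from it, had 0.10 at E11.5 and -0.23 at E12.5 (adjusted p = 0.920 and 0.0691, edgeR). *Mmp2*, the gene of a matrix protease 146372 bases beyond *Irx6*, had -0.12 and 0.24. On chromosome 13 the values at E12.5 ran from -0.47 (*Tert*) to 0.19.

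**Figure D5:**
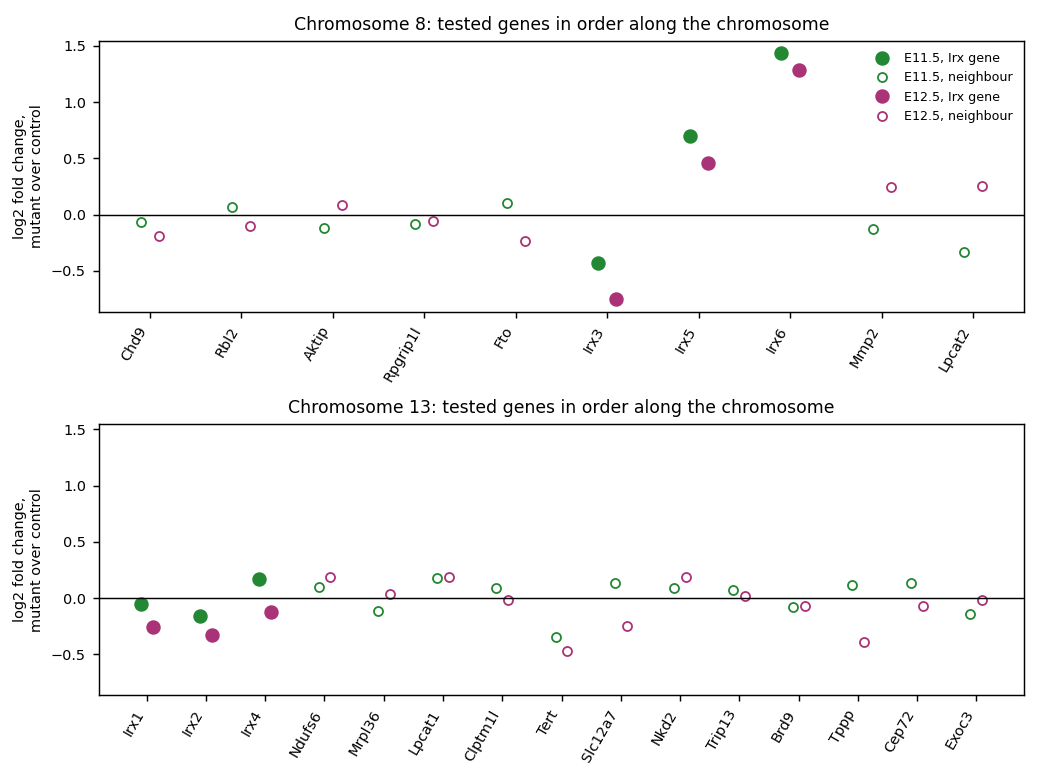
Log2 fold change, mutant over control, of the *Irx* genes (filled) and of the tested genes within 1 megabase (open), in their order along chromosomes 8 and 13, at E11.5 (green) and E12.5 (purple). On chromosome 8 the neighbours lie between -0.33 and 0.25, with *Irx3* below and *Irx5* and *Irx6* above them.

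Regulators and targets of the family were taken from lists chosen from general knowledge, with earlier results of these data known. Counts over these lists are thus not independent of the data. Of 11 regulators and partners, 10 were tested and none passed at either stage. *Nkx2-5*, a cardiac homeobox factor upstream of *Irx4*, had log2 fold changes of -0.03 and -0.15, *Hand1* had 0.46 and 0.36, *Hand2* 0.09 and -0.06 and *Gata4* 0.18 and 0.09 at E11.5 and E12.5. The median of the list was 0.07 and -0.16. The 11 genes of the related TALE factors MEIS, PBX, PKNOX and TGIF had no member that passed. *Meis1* stood at -0.08 and -0.22 and *Meis2* at -0.21 and -0.15, with medians of -0.03 and 0.00. At E12.5 the unadjusted p of 1 of the 11 was under 0.05 (edgeR), and the share of all genes is not reported here.

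Of the 11 genes reported to respond to Iroquois factors, 1 passed at each stage, and it was *Kcnd2*, which codes for a channel of the transient outward potassium current. *Kcnd2* had 4.62, 4.67 and 4.89 CPM in E11.5 controls and 1.17, 1.39 and 1.04 CPM in E11.5 mutants. At E12.5 it had 6.69, 7.89 and 7.20 CPM in controls and 2.09, 2.23 and 3.49 CPM in mutants. The groups lay far apart at both stages. *Kcnd2* passed at both stages, at a log2 fold change of -1.97 ± 0.27 (SE) for E11.5 (adjusted p = 0.0444, edgeR) and -1.48 ± 0.23 for E12.5 (adjusted p = 0.00682, edgeR). The E11.5 call held in 6 of the 8 other settings in which *Kcnd2* was tested. Among its losses was the fit with sex as a term (adjusted p = 0.0797, edgeR). It was also lost in each of the 6 fits that left out 1 library, with adjusted p-values from 0.0622 to 0.285 (edgeR). The E12.5 call held in all 6 fits without 1 library. *Gja1*, the connexin that *Irx3* represses in the conduction system, had 255 ± 39.1 and 381 ± 45.8 CPM in controls and mutants of E11.5 and 265 ± 38.2 and 372 ± 48.7 CPM at E12.5 (SD, n = 3). Its log2 fold changes of 0.58 and 0.49 were under the fold threshold (adjusted p = 0.211 and 0.0390, edgeR). Over both stages *Gja1* had 0.54 (adjusted p = 0.00624, edgeR), again under the fold threshold. Without that threshold 6.85% of all genes were called over both stages. *Gja5*, the connexin that *Irx3* activates there, had 0.01 and -0.41 (adjusted p = 0.996 and 0.250, edgeR). *Kcnip2*, which codes for a partner of the *Kcnd2* channel, had -0.62 at E11.5 (adjusted p = 0.890, edgeR) and was too low for a test at E12.5. The median of the list was 0.12 at E11.5 and 0.06 at E12.5.

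Chamber genes did not pass. Of 12 ventricular and trabecular genes 11 were tested, with medians of 0.01 and -0.09, and *Myl2*, a ventricular myosin light chain, had -0.06 and 0.10, *Myl3* 0.11 and 0.19 and *Hey2* -0.23 and -0.17. All 9 atrial genes were tested, with medians of 0.03 and 0.28, and *Myl4* had 0.01 and 0.28, *Myl7* 0.09 and 0.50 and *Sln* -1.71 and 0.81. Of the 16 conduction system genes 13 were tested at E11.5, where none passed, and 14 at E12.5, where *Gjd3* rose. *Gjd3*, a connexin of the nodes, had 0.675 ± 0.154 CPM in controls of E12.5 and 2.05 ± 0.341 CPM in E12.5 mutants (SD, n = 3), a log2 fold change of 1.59 (adjusted p = 0.0215, edgeR), and at so low a level the call was lost in 4 of the 6 fits without 1 library. *Tbx3*, a factor of the nodes and the atrioventricular bundle, had -0.17 and -0.55 (adjusted p = 0.953 and 0.0881, edgeR), and *Tbx2* had -0.18 and -0.17. The medians were -0.15 and -0.18. The summed level of the 16 genes was 665 to 675 CPM in E11.5 controls and 551 to 597 CPM in E11.5 mutants. At E12.5 it was 590 to 635 CPM in controls and 555 to 576 CPM in mutants. These sums did not overlap at either stage, as was the case for 16.3% of single genes at E11.5 and 26.3% at E12.5. A share over sums of other genes was not computed, so the lack of overlap is a description. Over these 6 lists, 1 of 57 tested genes passed at E11.5 and 2 of 57 at E12.5, against 0.115% and 2.95% of all genes.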

How the data were processed

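RNA-seq of whole embryonic hearts was analysed in 12 libraries. Per the methods of the study the reads were paired-end, and the submitters' processing notes name Bowtie2 (version 2), DESeq and mm10. The counting program, annotation and use of strand are not given in the sources used here. The authors deposited values named RPKM, which are a score: each is a whole count multiplied by gene length and a library factor. The authors also deposited the average count of each group, a mean of 3 whole read counts that can hold a fraction and was therefore handled under the unit of expected counts. Their fold changes and p-values were not used. Counts were recovered by solving for the factors on 11811 genes, and lay within 6.27e-09 of whole numbers for 17827 genes with reads. Another 1597 genes had none. Chromosome X and Y genes, absent from the deposited comparisons, were not fitted.

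edgeR 4.0.16 (R 4.3.3, quasi-likelihood, TMM) was used on the counts. A gene entered a fit when its mean RPKM there reached 0.5, and p-values were adjusted over all genes fitted by the Benjamini-Hochberg method. Confidence intervals are 95%, from edgeR's F statistic. CPM and RPKM used TMM-scaled totals. Correlations and nearest patterns used log2 CPM with a prior count of 2, and permutation tests of pooled correlations used 100000 resamples. Coding sequences were aligned with mafft 7.526. The scripts were tested on simulated data. Alternatives were DESeq2 1.42.0, limma 3.58.1 on log2(RPKM + 0.5), median-ratio scaling, no filter and a mean RPKM of at least 1, no fold threshold, sex or replicate number as a term, all 12 libraries in one fit, and each library left out. The members and lists were chosen with earlier results of these data known. Genes named were all 6 members, list genes that passed with up to 4 others per list, genes within 1 megabase, and the 3 nearest patterns. Ratios between members, *Hira* and the values of *Nfatc1* and *Sox1* were added after values were seen. Some genes that these rules would name are not reported here.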

Additional observations from a re-analysis of the deposited data

How the results depend on the processing

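The number of *Irx* genes past the test at E12.5, 2, was 0 in the fit of all 12 libraries and from 0 to 2 with each library left out, 0 without control library 1 or 2 and 1 without mutant library 1. At E11.5 it was 0, and 1 with DESeq2. Over both stages it was 1, and 2 with no fold threshold, with DESeq2 and with sex as a term, and from 1 to 2 with each library left out. The count of changed genes in the 6 lists of regulators, targets and chamber genes at E11.5, 1, was 0 with a mean RPKM of at least 1, 2 with DESeq2, 0 with sex as a term and 0 in each fit without 1 library. At E12.5 this count of 2 was 1 in the fit of all 12 libraries and from 1 to 6 with each library left out, the 6 coming without control library 3. Of all genes 14 passed at E11.5 and 248 with DESeq2, and at E12.5 362 were called, 613 without the fold threshold and 132 in the fit of all 12 libraries. No *Irx* gene passed between the stages or for a difference between them under any alternative. The causes were not tested.

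Signs turned for members near 0. At E11.5 the log2 fold change of *Irx1*, -0.05, was 0.00975 with limma, 0.00068 with the replicate block, 0.0889 with sex as a term and -0.27 to 0.27 with each library left out. That of *Irx2*, -0.16, was 0.0516 with sex as a term and -0.30 to 0.16 with each library left out, and that of *Irx3* was -0.73 to 0.00326. With each library left out, the difference between stages ran from -0.54 to 0.0171 for *Irx1* and from -0.44 to 0.22 for *Irx6*, and the combined effect on *Irx4* from -0.0524 to 0.0927. From E11.5 to E12.5 in controls *Irx1* had 0.075 with sex as a term and -0.28 to 0.27 with each library left out, *Irx2* had -0.0114 to 0.45, *Irx3* -0.052 to 0.68, *Irx4* -0.10 to 0.22 and *Irx5* -0.0678 to 0.35. In mutants *Irx2* had -0.16 to 0.12 and *Irx5* -0.27 to 0.0413.

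Replicate numbers are not stated to pair libraries, and of 18 same-numbered pairs 5 had a correlation of deviations over 0.1 (range -0.12 to 0.40). With the replicate block the number of *Irx* genes past the test stayed 0 at E11.5, 2 at E12.5 and 1 over both stages, *Irx6* at E12.5 having a log2 fold change of 1.3 (adjusted p = 0.00209, edgeR), while the count over all genes was 73 at E11.5 and 424 at E12.5. Other scaling left the median of all genes within 0.00337 of 0 on the log2 scale. The log2 fold changes of single genes kept their direction and side of the threshold in 636 repeats with another setting, lost the call in 21, gained it in 13 and turned in 30. At E11.5 sex and genotype overlap, with 3 male control libraries and 1 male mutant library. The depth of 58 to 474 reads on *Irx6* per library, an unknown counting strand and the run shared with *Irx3* limit its level.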
